A study of Mus musculus with 9 samples.

Results

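Ucp1, Cidea, Ppargc1a, Prdm16, Dio2, Pdk4, Zic1 and Fabp3 are 8 genes used to recognise heat-producing brown fat, and their RNA levels were followed in the back skin of mice with DNCB-induced dermatitis. They were 8 of the 55401 genes in the count table. The genes were picked by name because of their levels in 1 library, coded MXL_3, against the other 8 libraries, and because of their difference between the libraries coded MR and those coded MXL. Both contrasts chose the genes, so the values below describe these libraries and carry no test. Male C57BL/6 mice aged 6 to 8 weeks were shaved on the back, sensitized on day 1 with 200 µL of 1% DNCB, a small reactive molecule that raises a contact allergy, and challenged from day 4 to day 21 with 100 µL at 0.5%. The 5 mice of the FJDHF group were fed the Fangji Dihuang formulation, a mixture of plant drugs, each day after day 7 until day 28. The 4 mice of the Model group were not fed it. Every mouse was treated with DNCB, so no library here shows untreated skin.

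Brown adipocytes burn fatty acids to make heat, and Ucp1 is the channel in their inner mitochondrial membrane that lets protons return without making ATP. Noradrenaline acting through beta-adrenergic receptors and cyclic AMP switches the programme on, with Ppargc1a as the inducible coactivator, Prdm16 and Zic1 as factors linked to brown fat identity, and Dio2 supplying active thyroid hormone inside the cell. Fabp3 carries fatty acids in the cytosol, Pdk4 spares glucose by shutting pyruvate dehydrogenase, and Cidea enlarges lipid droplets. None of the other members is as restricted to brown fat as Ucp1: skeletal and heart muscle use Fabp3, Pdk4 and Ppargc1a, and sebaceous glands use Cidea.

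The group of each library was inferred. The labels do not explain the codes: the 5 MR columns were taken as FJDHF and the 4 MXL columns as Model because those are the sizes of the groups, and because MX abbreviates the Chinese for model. Every direction between the groups rests on that assignment. Codes such as MR3_4 were taken as 1 library each, and whether any of them holds RNA pooled from several mice was not tested. Total counts were 74648669 to 79474215 per library, and 3 counts, taken as the floor for counting error only, equal 0.0377 to 0.0402 CPM, that is, counts scaled to the library total. Markers of epidermis, hair follicle and dermal fibroblasts were present in all 9 libraries, as skin should show. MXL_3 stood apart in muscle content: it held the highest level of 14 of 15 skeletal muscle markers, all but Acta1, and of 7 of 7 slow oxidative muscle markers. The lists share Myh7, Tnnt1 and Mb, so they are not independent. Beside these counts, MXL_3 was highest for 13.2% of all tested genes. Differences of the members between the groups are therefore given with and without it.

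The promoters of Ucp1, Ppargc1a and Dio2 are shown because these are the members that cyclic AMP is known to induce. The sequences are the 250 bases before the RefSeq start in GRCm38.p6, read 5′ to 3′ along the gene, with capitals for the motif matches named after them. The windows are chr8:83290098-83290347 on the plus strand for Ucp1, chr5:51567726-51567975 on the minus strand for Ppargc1a and chr12:90739039-90739288 on the minus strand for Dio2, and none of them overlaps the deposited gene. The deposited Dio2 gene starts at 90738438 on the minus strand, so its RefSeq start lies upstream of the deposited one.
Ucp1: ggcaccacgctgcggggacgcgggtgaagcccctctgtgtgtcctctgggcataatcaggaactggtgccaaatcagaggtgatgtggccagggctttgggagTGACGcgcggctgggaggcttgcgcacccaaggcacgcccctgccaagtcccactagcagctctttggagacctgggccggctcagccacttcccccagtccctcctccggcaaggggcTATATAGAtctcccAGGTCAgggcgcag
Ppargc1a: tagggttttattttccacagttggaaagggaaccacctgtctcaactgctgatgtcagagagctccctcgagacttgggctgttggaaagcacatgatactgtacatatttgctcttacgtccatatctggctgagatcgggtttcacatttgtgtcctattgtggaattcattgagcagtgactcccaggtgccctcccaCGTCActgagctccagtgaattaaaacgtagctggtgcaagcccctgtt
Dio2: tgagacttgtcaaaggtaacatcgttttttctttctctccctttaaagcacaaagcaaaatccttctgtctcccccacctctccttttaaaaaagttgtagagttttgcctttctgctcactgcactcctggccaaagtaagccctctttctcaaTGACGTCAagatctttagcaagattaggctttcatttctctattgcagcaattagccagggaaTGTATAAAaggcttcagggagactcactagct

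Both strands were searched for a TATA box written as TATANA, for the cyclic AMP response element as TGACGTCA and its core as TGACG, for a nuclear receptor half-site as AGGTCA, for a CCAAT box by those letters, and for the MEF2 core. The Ucp1 window held TGACG at -147 to -143, AGGTCA at -14 to -9, and TATATA at -28 to -23 on both strands, overlapped by TATAGA at -26 to -21. The Dio2 window held the full TGACGTCA at -95 to -88, which contains TGACG on each strand, and TATAAA at -30 to -25 with an overlapping match on the other strand at -32 to -27. In the Ppargc1a window the single match was TGACG on the reverse strand at -49 to -45, printed above as CGTCA. Of 32851 promoter windows of the same length, 1.55% held TGACGTCA, 17.8% TGACG, 14% AGGTCA and 22.6% TATANA, so the full element of Dio2 was the least common of these strings. RefSeq windows were matched for 7 of the 8 members. Prdm16, Pdk4 and Zic1 had a CCAAT match, a string held by 33.8% of windows, Fabp3 had TGACG at -149 to -145, and the MEF2 core, held by 3.2% of windows, had no match in any of the 7. A match describes letters in a window and says nothing of binding in this skin.

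Ucp1 (chromosome 8, 83290352 to 83298452, plus strand, GRCm38) was low but above the floor of 3 counts in 8 libraries and far higher in 1. Its counts were 73 in MR1, 75 in MR3, 54 in MR3_4, 45 in MR4_5 and 36 in MR5, and 48 in MXL1, 65 in MXL12, 88 in MXL3_4 and 2259 in MXL_3. Per length and depth, the authors' FPKM values were 0.27 to 0.64 in the other 8 libraries and 17.4 in MXL_3, which was 38.3 times the median of the others and 27.2 times the next library, MXL3_4. The MR range and the range of the other 3 MXL libraries overlapped, and only MXL_3 lay outside both. Group means were 0.427 ± 0.130 FPKM (SD, n = 5) for MR and 4.72 ± 8.44 FPKM (SD, n = 4) for MXL, so the MXL spread was larger than its mean. In bulk RNA, fewer brown adipocytes in a biopsy and less Ucp1 RNA in each cell cannot be told apart.

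**Figure D1:**
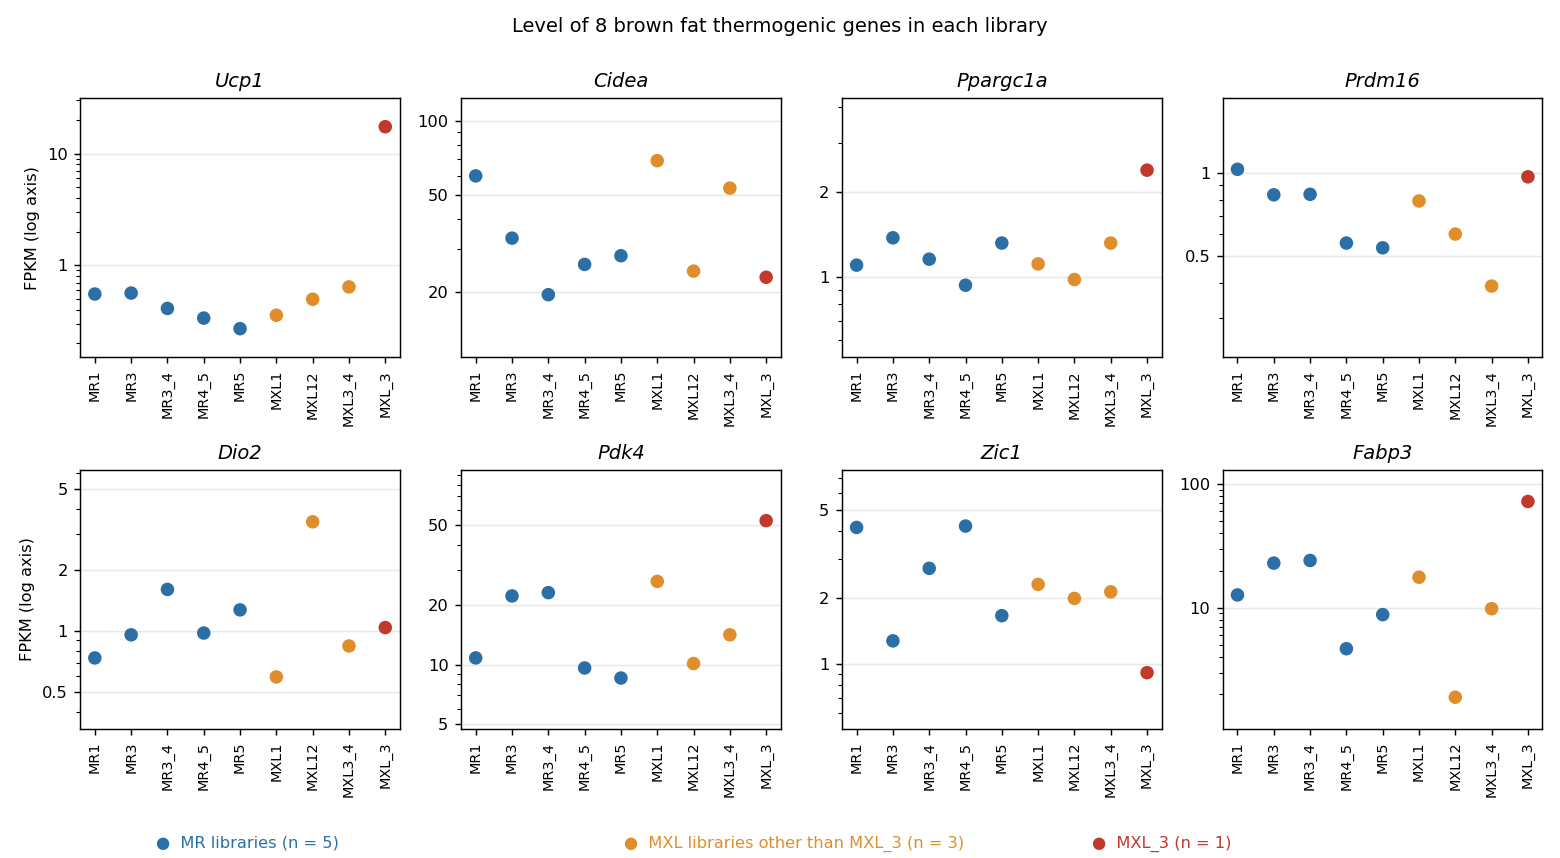
FPKM (log axis) of each of the 8 genes in each library, 1 point per library, with MR in blue, MXL in orange and MXL_3 in red. Ucp1 in MXL_3 was 17.4 FPKM against 0.27 to 0.64 elsewhere, Zic1 was lowest in MXL_3, and the highest Dio2 and Cidea values were in MXL12 and MXL1.

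The fuel genes Fabp3 and Pdk4 were also highest in MXL_3, and both were above 1 FPKM in every library. Fabp3 (chromosome 4, 130308595 to 130315463, plus strand) measured 12.7, 23.0, 24.1, 4.68 and 8.81 FPKM in MR1, MR3, MR3_4, MR4_5 and MR5, and 17.7, 1.90, 9.84 and 72.2 FPKM in MXL1, MXL12, MXL3_4 and MXL_3. MXL held both the lowest and the highest Fabp3 library, so the MR range lay inside the MXL range. Pdk4 (chromosome 6, 5483351 to 5496309, minus strand) measured 10.8, 22.1, 23.0, 9.61 and 8.56 FPKM in the same order of MR libraries and 26.2, 10.1, 14.1 and 52.8 FPKM in MXL1, MXL12, MXL3_4 and MXL_3. MXL_3 was 6.41 times the median of the other 8 for Fabp3 and 4.24 times for Pdk4, and the order of the remaining libraries mixed the groups.

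Cidea (chromosome 18, plus strand) did not follow Ucp1. It measured 59.8, 33.3, 19.6, 26.0 and 28.2 FPKM in MR1, MR3, MR3_4, MR4_5 and MR5, and 69.0, 24.4, 53.3 and 23.1 FPKM in MXL1, MXL12, MXL3_4 and MXL_3. The highest values were in MXL1, MR1 and MXL3_4, and MXL_3 was the second lowest of the 9. Elovl3, a fatty acid elongase of brown fat and of sebaceous glands, had the same extremes at the low end, with 36.7 FPKM in MR3_4 and 42.1 FPKM in MXL_3 against 68.1 to 147.4 FPKM in the rest.

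Among the regulators, Ppargc1a (chromosome 5, 51454250 to 51567704, minus strand) was the one whose level was highest in MXL_3. Its counts were 583, 741, 608, 499 and 703 in MR1, MR3, MR3_4, MR4_5 and MR5, and 597, 517, 724 and 1255 in MXL1, MXL12, MXL3_4 and MXL_3. The other 8 libraries lay within 0.94 to 1.38 FPKM, and MXL_3 at 2.40 FPKM was 2.11 times their median and 1.74 times the next library, MR3. Prdm16 (chromosome 4, 154316125 to 154636866, minus strand) had 769, 633, 621, 422 and 405 counts in the MR libraries in that order and 600, 448, 306 and 717 in the MXL libraries. MR1 was highest and MXL3_4 lowest for Prdm16, and MXL_3 was second highest, inside the range of the others.

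Zic1 (chromosome 9, 91358058 to 91365810, minus strand), a transcription factor of classical brown fat and of dorsal body wall cells, went the other way. Its counts were 1901, 590, 1232, 1944 and 761 in MR1, MR3, MR3_4, MR4_5 and MR5, and 1063, 903, 1006 and 413 in MXL1, MXL12, MXL3_4 and MXL_3. MXL_3, the library with the most Ucp1, had the least Zic1, at 0.413 times the median FPKM of the others, while MR1 and MR4_5 had the most. Dio2 (chromosome 12, 90724552 to 90738438, minus strand), the activating deiodinase, had 344, 454, 742, 459 and 597 counts in the MR libraries and 282, 1601, 409 and 481 in MXL1, MXL12, MXL3_4 and MXL_3. For Dio2 the library that stood out was MXL12, at 3.45 FPKM against 0.60 to 1.60 FPKM elsewhere, and MXL_3 was inside that range.

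By median FPKM over the 9 libraries the order was Cidea at 28.2, Pdk4 at 14.1, Fabp3 at 12.7, Zic1 at 2.13, Ppargc1a at 1.16, Dio2 at 0.979, Prdm16 at 0.791 and Ucp1 at 0.496. The library ranges of every pair of neighbours in this order overlapped, so no neighbours differed beyond their spread. Leaving out MXL_3, the ratio of the highest to the lowest library was 1.47 for Ppargc1a, 2.36 for Ucp1, 2.62 for Prdm16, 3.06 for Pdk4, 3.32 for Zic1, 3.53 for Cidea, 5.78 for Dio2 and 12.7 for Fabp3. On log2(CPM + 0.5) the SD over these 8 libraries was 0.264 for Ucp1, larger than that of 31.7% of the 20817 tested genes, and 1.137 for Fabp3, larger than that of 97.5%. Low-count genes such as Ucp1 are compressed on this scale by the added 0.5.

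On log2(CPM + 0.5), MXL_3 minus the median of the other 8 was 4.61 for Ucp1, 2.67 for Fabp3, 2.13 for Pdk4, 1.06 for Ppargc1a, 0.53 for Prdm16, 0.20 for Dio2, -0.30 for Cidea and -1.14 for Zic1. Only 3 of the 20817 tested genes had a larger value than Ucp1, whereas 45 exceeded Fabp3 and 161 exceeded Pdk4. MXL_3 was the highest of the 9 libraries for 4 of the 8 members, beside 13.2% of all tested genes, and the lowest for 1, beside 16.6%. It was at least 2-fold above the median of the others for 4 members, beside 4.97% of tested genes, and at least 2-fold below for Zic1, beside 4.16%. The rule used this contrast, so nothing is read from these shares.

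**Figure D2:**
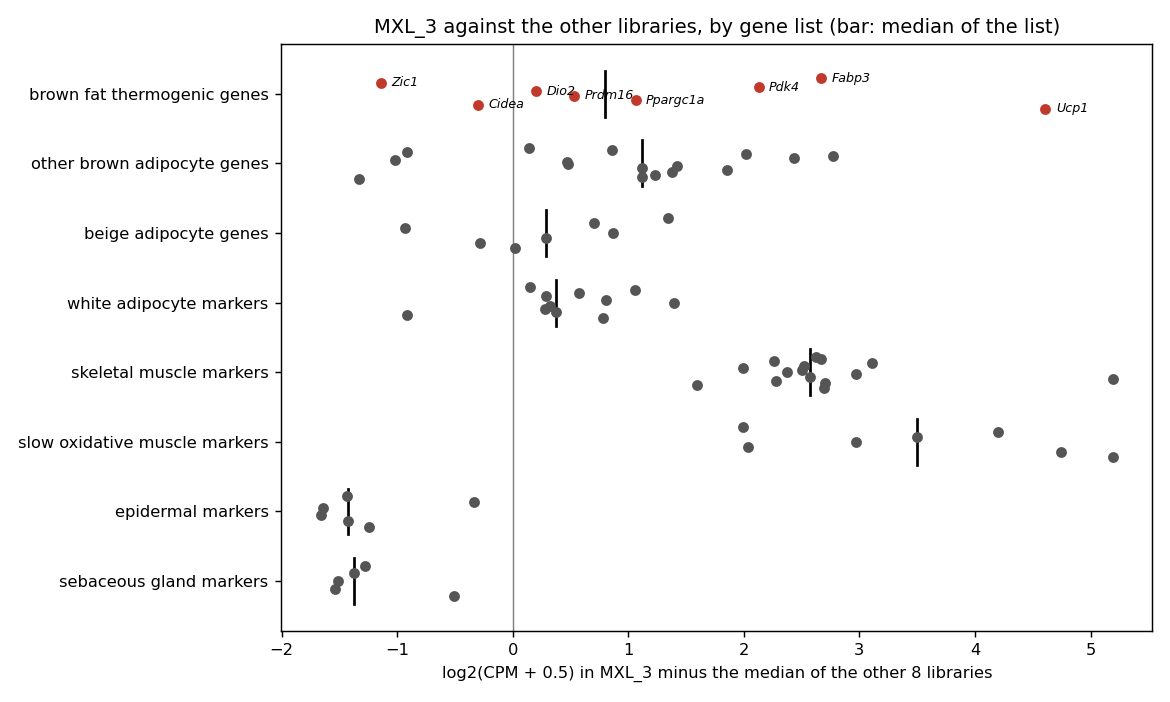
Each point is 1 gene, placed by log2(CPM + 0.5) in MXL_3 minus the median of the other 8 libraries, and the vertical bar is the median of its list. Ucp1 at 4.61 lies with the highest slow oxidative muscle markers, while Cidea and Zic1 lie below 0 together with the epidermal and sebaceous gland markers.

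Between the groups, edgeR called 0 of the 8 members, beside 0% of the 20817 genes tested, at an adjusted p under 0.05 and at least 2-fold. Before adjustment 326 genes (1.57%) had a p under 0.05, limma on log2(FPKM + 1) called 0 genes, and DESeq2 called 2, Defb8 and Casp14, which were looked up after the count was seen and are not members. The libraries of the groups overlapped for all 8 members, beside 0.514% of tested genes whose groups did not overlap. The log2 fold change of MR over MXL was -3.52 (SE 1.12) for Ucp1, -0.84 (SE 0.84) for Fabp3, -0.83 (SE 0.50) for Pdk4, -0.44 (SE 0.49) for Dio2, -0.36 (SE 0.40) for Cidea, -0.34 (SE 0.29) for Ppargc1a, 0.12 (SE 0.32) for Prdm16 and 0.60 (SE 0.41) for Zic1. The estimate was below 0 for 6 of 8 members, beside 55.9% of tested genes, with a median of -0.40 beside -0.03 over all tested genes.

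Several of these values rested on MXL_3. Without it the log2 fold change of Ucp1 was -0.24 (SE 0.40), that of Pdk4 -0.18 (SE 0.43), and the estimates of Fabp3 and Ppargc1a turned to 0.59 (SE 0.71) and 0.04 (SE 0.23). The other 4 members kept their sign without MXL_3, with Cidea at -0.56 (SE 0.40), Dio2 at -0.56 (SE 0.54), Prdm16 at 0.35 (SE 0.33) and Zic1 at 0.39 (SE 0.41). Single other libraries turned 2 directions: Dio2 was 0.39 without MXL12, and Prdm16 was -0.07 without MXL3_4 and -0.03 without MR1. Cidea ranged from -0.69 without MR1 to -0.05 without MXL1, both libraries with high sums of sebaceous gland markers.

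**Figure D3:**
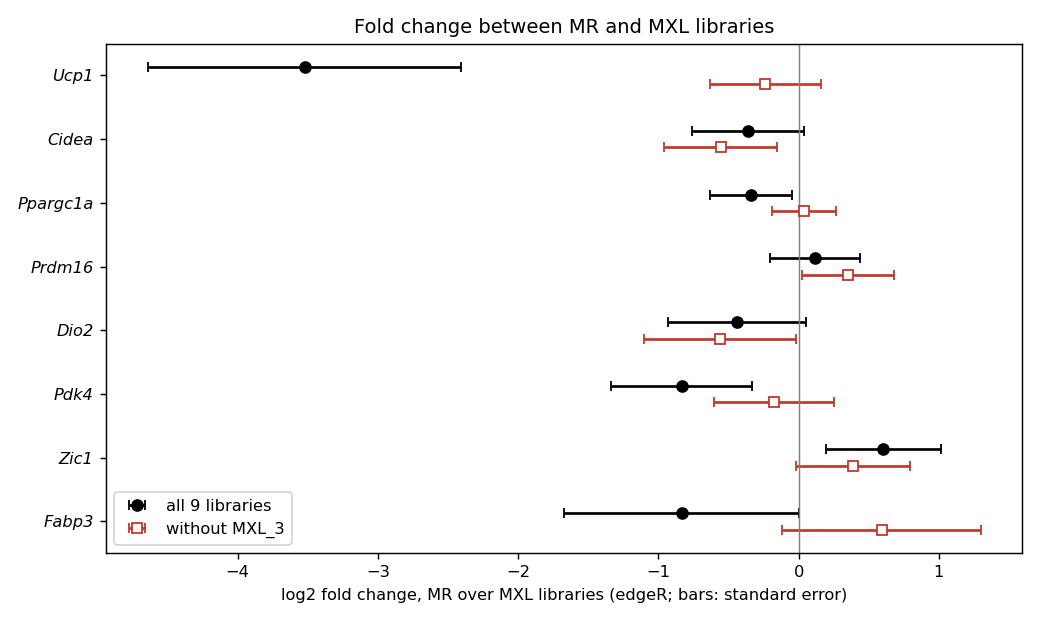
Fitted log2 fold change of MR over MXL for the 8 genes, with bars of 1 standard error, for all 9 libraries (filled) and without MXL_3 (open). Leaving out MXL_3 moved Ucp1 from -3.52 to -0.24 and turned Fabp3 from -0.84 to 0.59.

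Muscle RNA moved with part of this pattern. The summed FPKM of the 15 skeletal muscle markers was 1011 to 5470 in MR, 329.5 to 2322 in the other MXL libraries and 9187 in MXL_3. Slow oxidative fibre genes were concentrated there: Myh7, the slow myosin heavy chain, had 1425 counts in MXL_3 and 0 to 51 elsewhere, with 0 in MR1, MR5 and MXL1, and Myl2, a slow myosin light chain, had 1806 counts against 0 to 133. No marker of either list was at 0 in all 9 libraries. With the mean level of the skeletal muscle markers as a covariate, the log2 fold change of MR over MXL was -2.16 (SE 0.65) for Ucp1, -0.35 (SE 0.22) for Fabp3, -0.83 (SE 0.16) for Pdk4 and -0.33 (SE 0.21) for Ppargc1a. Beside the values without the covariate, the estimates of Ucp1 and Fabp3 were nearer 0, that of Pdk4 was the same with a smaller standard error, and that of Ppargc1a hardly moved. The ratios that follow were chosen after the values were seen.

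The ratio of Fabp3 to muscle varied far less than Fabp3 itself. Per 1000 FPKM of summed muscle markers, Fabp3 was 6.50, 4.20, 4.90, 4.63 and 5.49 FPKM in MR1, MR3, MR3_4, MR4_5 and MR5 and 7.61, 5.76, 7.17 and 7.86 FPKM in MXL1, MXL12, MXL3_4 and MXL_3. This ratio spanned 1.87-fold over the 9 libraries, while Fabp3 itself spanned 38.1-fold. Ckmt2, the mitochondrial creatine kinase of striated muscle, had a ratio that spanned 2.36-fold against 24.7-fold for its level, and Cox8b, a cytochrome oxidase subunit of heart, skeletal muscle and brown fat, 4.05-fold against 44.5-fold. The ratio of Ucp1 to muscle spanned 22.7-fold, from 0.0834 FPKM in MR3_4 to 1.51 FPKM in MXL12 and 1.89 FPKM in MXL_3 per 1000 FPKM of muscle markers. Over the other 8 libraries this ratio spanned 18.1-fold while Ucp1 itself spanned 2.36-fold, so there it was set mostly by the muscle sum. MXL12 came near MXL_3 in this ratio with the least muscle of the 9. The source of the Ucp1 RNA was not tested. MR3 and MR3_4, the libraries with most muscle after MXL_3, had 75 and 54 counts of Ucp1, within the range of the rest.

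The muscle ratios of Pdk4 and Ppargc1a were set by MXL12, the library with least muscle. Per 1000 FPKM of muscle markers, Pdk4 was 30.7 FPKM in MXL12 and 4.04 to 11.3 FPKM in the other 8 libraries, and Ppargc1a was 2.98 FPKM and 0.235 to 0.962 FPKM. With MXL12 the ratio spanned 7.59-fold for Pdk4, whose level spanned 6.17-fold, and 12.6-fold for Ppargc1a, whose level spanned 2.56-fold. The summed FPKM of 11 white adipocyte markers was not highest in MXL_3. It was 489.4 to 2103 in MR, 687.9 to 997.1 in the other MXL libraries and 1465 in MXL_3, below MR3_4. MXL_3 was highest for 0 of the 11, beside 13.2% of all tested genes. Per 1000 FPKM of white adipocyte markers, Ucp1 was 0.195 to 0.722 FPKM in the other 8 libraries and 11.9 FPKM in MXL_3. Cidea moved with the sebaceous gland: the summed FPKM of Mc5r, Scd3, Awat1, Awat2 and Far2, a list added after the values were seen, was 45.0 to 166.6 in MR, 119.4 to 277.5 in the other MXL libraries and 46.9 in MXL_3, and the ratio of Cidea to it spanned 2.40-fold against 3.53-fold for Cidea. MXL_3 was highest for 0 of these 5 markers, none of them was at 0 in all libraries, and their part in the Cidea level was not tested.

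**Figure D4:**
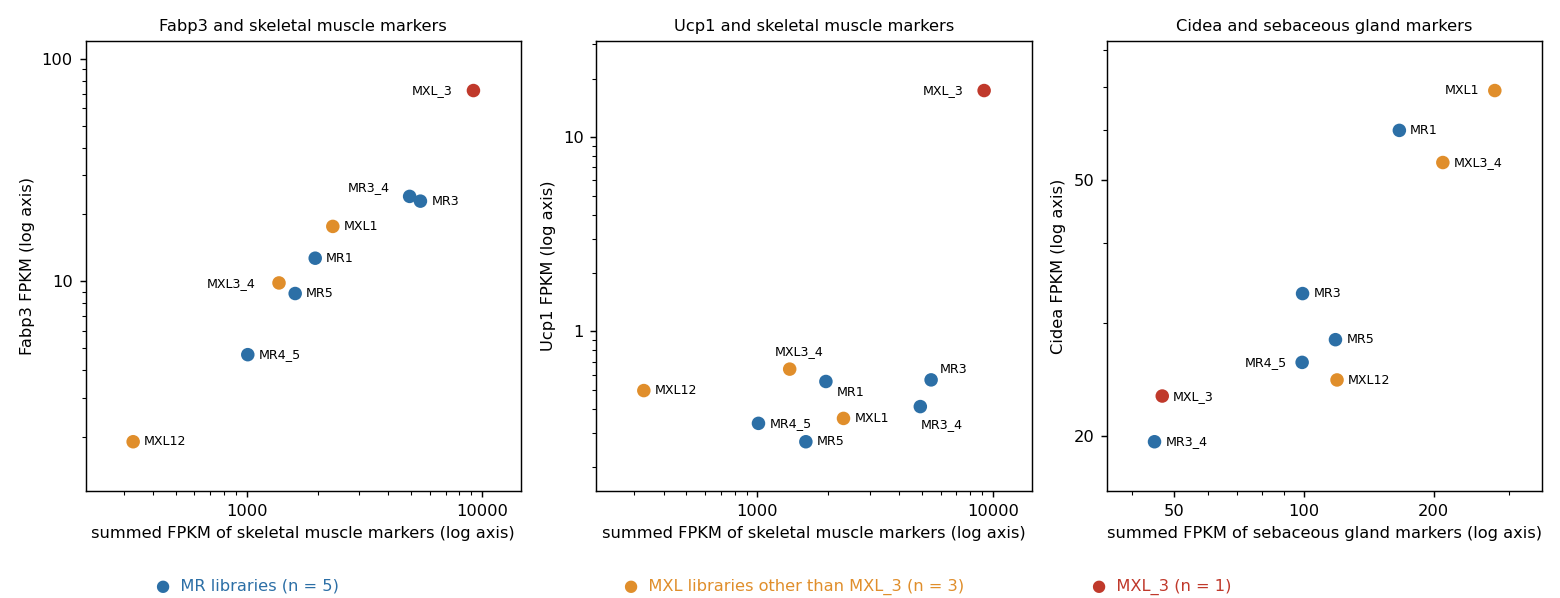
Fabp3 and Ucp1 against the summed FPKM of 15 skeletal muscle markers and Cidea against that of 5 sebaceous gland markers, 1 point per library, all axes log. Fabp3 lies along a line through all 9 libraries, Ucp1 lies between 0.27 and 0.64 FPKM from MXL12 to MR3 and at 17.4 FPKM in MXL_3, and Cidea is highest in MXL1, MR1 and MXL3_4.

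Of 16 other brown adipocyte genes, MXL_3 was highest for 9, namely Otop1, Slc27a2, Ebf2, Kcnk3, Plin5, Acot11, Cox7a1, Cox8b and Cpt1b, and lowest for 2, Eva1a and Gk. Over all tested genes these shares were 13.2% and 16.6%. Ebf2, a factor of brown and beige precursors, had 3763 counts in MXL_3 and 799 to 2230 elsewhere, and Otop1, a proton channel enriched in brown fat, had 126 against 5 to 53. Lhx8, another brown fat transcription factor, was high in MXL12 with 305 counts as well as in MXL_3 with 290, against 27 to 72 in the others. Cox8b, Cox7a1 and Cpt1b are shared with muscle, and they were lowest in MXL12, the library with least muscle. The source of their RNA was not tested. Between the groups 0 of the 15 tested genes of this list were called, and 12 had a log2 fold change below 0, beside 55.9% of all tested genes. The median was -0.43, which became 0.07 without MXL_3.

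Among the beige adipocyte genes MXL_3 was highest for 0 of 7 and lowest for 0, beside the 13.2% and 16.6% of all tested genes given above, and no difference between the lists was tested. Slc36a2, an amino acid transporter gene used as a beige marker, was second highest in MXL_3, with 1867 counts against 464 to 2169 elsewhere. The median difference of MXL_3 from the others was 0.29 on log2(CPM + 0.5), against 0.80 for the 8 members and 1.12 for the other brown genes. Hoxc9, a homeobox gene more active in beige and white than in brown fat, had 504, 192, 223, 168 and 167 counts in MR1, MR3, MR3_4, MR4_5 and MR5 and 150, 6, 98 and 63 in MXL1, MXL12, MXL3_4 and MXL_3. Its groups did not overlap, and its log2 fold change of 1.67 (SE 0.71) had an adjusted p of 1 in edgeR. The other tested beige genes ranged from -0.92 for Tnfrsf9 to 0.30 for Tbx1, and 0 of the 7 were called.

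**Figure D5:**
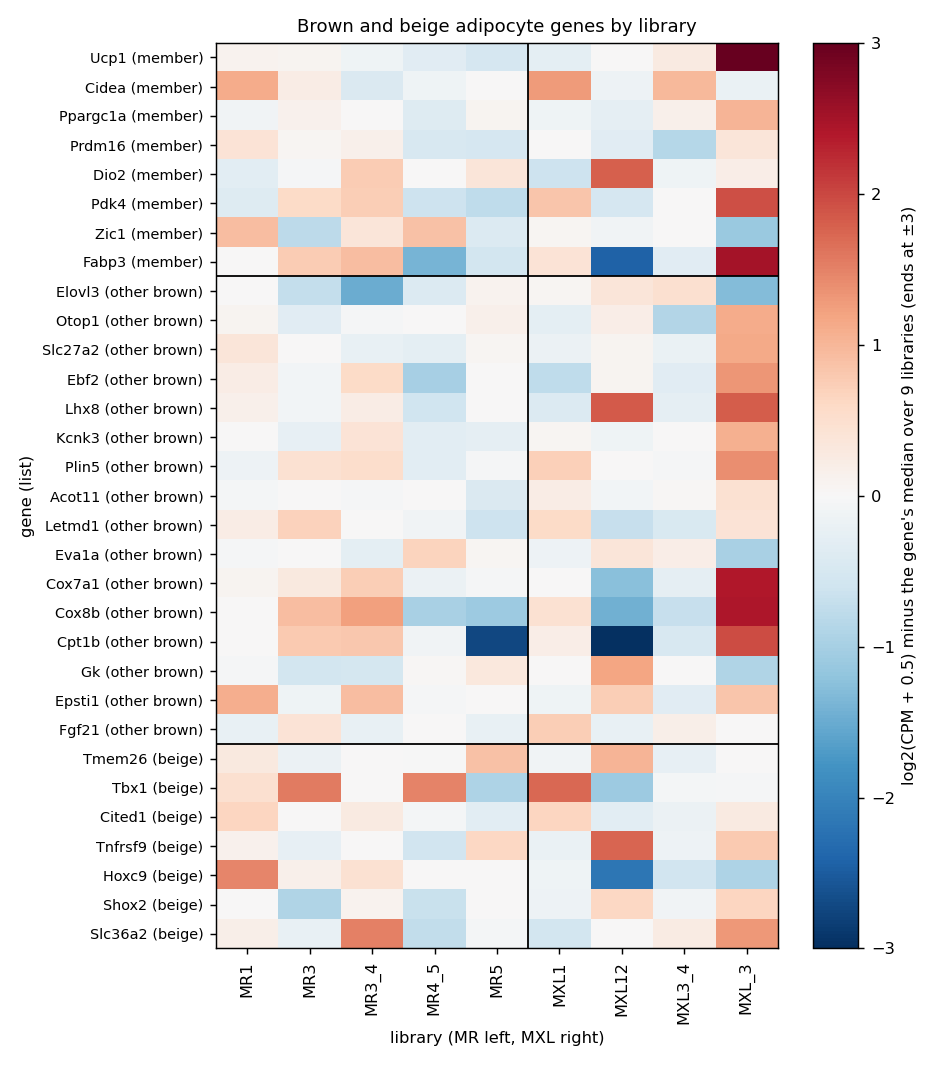
Level of the 8 members, 16 other brown and 7 beige adipocyte genes in each library, as log2(CPM + 0.5) minus the gene's median over the 9 libraries, with colours ending at 3 in either direction. The darkest column is MXL_3 for Ucp1, Fabp3, Cox7a1 and Cox8b, and MXL12 holds the highest Dio2.

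Relatives of the members did not share the Ucp1 pattern, with some exceptions in muscle-type genes. Ucp2, the widely expressed homologue, was 25.7 to 80.3 FPKM in the other libraries and 29.95 FPKM in MXL_3, whereas Ucp3, the muscle homologue, was 1.58 to 4.64 FPKM and 7.45 FPKM. Pdk2 was also highest in MXL_3 (27.4 FPKM against 3.99 to 19.6), and Pdk3 was lowest there (8.14 FPKM against 9.73 to 18.65). Fabp4 of adipocytes was inside the range of the others in MXL_3, at 191.7 FPKM, and Fabp5 of keratinocytes was lowest there, at 76.7 FPKM against 141.0 to 421.7. Zic4, the neighbour of Zic1, was lowest in MXL_3 as Zic1 was, with 10 counts against 55 to 260. Cidec of white fat lay inside the range of the others, and Dio3, the inactivating deiodinase, was lowest in MXL_3 with 30 counts against 32 to 319.

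Upstream of Ucp1, the beta-3 adrenergic receptor gene Adrb3 had 474, 607, 518, 391 and 434 counts in MR1, MR3, MR3_4, MR4_5 and MR5 and 543, 360, 411 and 734 in MXL1, MXL12, MXL3_4 and MXL_3. MXL_3 was highest for 3 of the 9 genes of adrenergic signalling, Adrb3, Gnas and Prkaca, beside 13.2% of all tested genes. Of 15 other thermogenic regulators it was also highest for 3. One was Esrrg, an orphan receptor of oxidative muscle and brown fat, with 799 counts against 88 to 223. The group difference called 0 genes of either list, and the medians of log2 fold change were -0.02 and -0.03. Of 10 genes for heat-producing cycles without Ucp1, MXL_3 was highest for 5, beside the same 13.2%, and 0 were called. The list includes Atp2a1, the calcium pump gene of muscle. Atp2a1 was 844.8 FPKM in MXL_3 against 29.6 to 462.4 FPKM elsewhere.

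All 15 fatty acid oxidation genes had a log2 fold change of MR over MXL below 0, beside 55.9% of all tested genes. Of the 15, 0 were called, the median was -0.19 and the range was -0.40 to -0.01. MXL_3 was highest for 7 of these 15, beside 13.2% of all tested genes, and values without MXL_3 are not given here for this list or the pathways below. In the KEGG Thermogenesis pathway 222 of 227 genes were tested, 0 were called, 72 lay above 0 and 150 below, and the median was -0.06. In the KEGG PPAR signaling pathway 66 of 79 were tested, 0 were called, 20 lay above 0 and 46 below, and the median was -0.13. Over all tested genes 55.9% lay below 0 and the median was -0.03, and no list was tested as a set. Ucp1 was the extreme gene of both pathways at -3.52, a value that rests on MXL_3 as given above.

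The genes with the pattern most like that of Ucp1, by Pearson r of log2(CPM + 0.5) over the 9 libraries, were Prg2 (0.990), Igkv5-43 (0.983), Kcng4 (0.981), Myl3 (0.976) and Xlr3a (0.956). All 5 had their highest count in MXL_3, as with 1118 counts of Igkv5-43 against 12 to 53 and 218 of Prg2, a granule protein of eosinophils, against 12 to 33. Over the 8 libraries without MXL_3 their r was 0.787, 0.606, 0.652, 0.498 and -0.264, so the likeness rests largely on that library, and depth and tissue content are shared by all genes of a library. Among the members Ppargc1a was most like Ucp1, at rank 33 with r of 0.902 over 9 and 0.317 over 8 libraries. Fabp3 had 0.667 and 0.107, Cidea -0.228 and 0.341, and Zic1 -0.592 and -0.029. Adipoq, one of the white adipocyte markers and not a member, had 0.279 and 0.584.

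In the GENCODE M21 annotation of GRCm38, Ucp1, Cidea, Ppargc1a and Pdk4 share no exonic base with another gene. Prdm16 shares 109 exonic bases with B230104I21Rik, Dio2 100 with Gm26512, Zic1 60 with Zic4, and Fabp3 80 with Gm10570 and 81 with Zcchc17, all on the opposite strand. The study's methods describe a strand-specific library, but whether strand was used in counting is not given in the sources used here. Reads in those bases could therefore have been counted for either gene. The shared bases are few beside exonic lengths of 9321 for Prdm16, 5815 for Dio2, 5693 for Zic1 and 823 for Fabp3.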

How the data were processed

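Poly(A) RNA of back skin was sequenced from both ends in 9 libraries. The deposited count table holds unnormalized whole-number counts of 55401 genes. The authors also deposited FPKM values, scaled for length and depth, of the 34637 genes that had any count. The submitters' processing notes name HISAT, StringTie, DESeq2 and the build mm10, and versions, counting options and annotation release are not given in the sources used here. A further 9 columns of counts in the FPKM table were not used.

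The members and gene lists were chosen with earlier results of these data known. Named genes are the 8 members and their family members, per list of the pathway the 3 with the smallest p and the most abundant, per marker list the most abundant and any at 0 in all libraries, and the 5 genes most like Ucp1, and a few of these are given only within the counts of their list. Any other gene in the text was picked with its values in view. The main fit to the counts used edgeR 4.0.16 under R 4.3.3, with its quasi-likelihood test after filterByExpr and TMM scaling, no covariate, and Benjamini-Hochberg adjustment over 20817 genes. Genes were called at an adjusted p under 0.05 and at least 2-fold, as in the study's methods. Labels name separate mice, and single codes were not matched to mice. All 36 library pairs differed beyond counting noise, with a chi-square per degree of freedom of at least 125.6. None was therefore counted as a repeat of the same RNA. The check cannot show whether any libraries share a mouse. Alternatives were DESeq2 1.42.0 (its size factors and its Wald test), limma 3.58.1 on log2(FPKM + 1), no filter, at least 10 counts in every library, the mean level of skeletal muscle markers as a covariate, each library left out, a replicate block, a pseudocount of 0.1, FPKM in place of CPM, and MXL_3 against the other 3 MXL libraries. The steps were tested on simulated data. Promoter windows came from RefSeq (GRCm38.p6) and overlaps from GENCODE M21. Normal mice were not analysed here.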

Additional observations from a re-analysis of the deposited data

Results flagged for a closer look

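Within each group, the gap between the most extreme library and its nearest neighbour was divided by the range of the group, and 32 such ratios were compared with Dixon's 95% critical value. Chance flags about 1 in 20 groups, and 3 ratios were past it, all of them MXL_3 among the 4 MXL libraries. The members were chosen by their level in MXL_3, so their ratios describe the values that chose them, and the count of flags is not a test. Ucp1 was flagged as high, with a ratio of 0.884, and Zic1 as low, with a ratio of 0.860. The mean log2(CPM + 0.5) of the slow oxidative muscle markers was flagged as high, with a ratio of 0.952. The ratios of MXL_3 were under the critical value for Ppargc1a (0.671), Pdk4 (0.457) and Fabp3 (0.424), as was that of MXL12 for Dio2 (0.663).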

How the results depend on the processing

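Genes called between the groups numbered 0 in edgeR under every filter, both scalings, limma and each library left out, 2 with DESeq2's Wald test, and 1, Rptn, named after the count was seen, with the muscle score as a covariate. Genes at an unadjusted p under 0.05 (326) numbered 905 without a filter, 217 without MR4_5 and 734 without MXL1. The log2 fold change of Ucp1 was below 0 in all 17 alternatives. Only 1 of them left out MXL_3, whose level chose Ucp1, so the shared sign is no check of the result. Without MXL_3 the Ucp1 estimate was -0.24 (SE 0.40), less than 1 SE from 0. Leaving out any other single library gave -3.91 to -3.39. Ucp1 was at -0.98 in limma and at -2.16 given the muscle score, and both fits kept MXL_3. The log2 fold change of Dio2 lay between -0.71 and 0.39 with 1 library left out. With the replicate block, made from the numbers that 3 pairs of codes share, Ucp1 was -1.42 and Dio2 0.36. Without the block, the same 6 libraries, an alternative chosen after seeing the data, gave -3.63 for Ucp1 and 0.40 for Dio2. The deviations of the pairs correlated at 0.225, 0.118 and -0.219, inside the range of -0.562 to 0.548 of pairs that share no number. These values show no pairing by number and cannot exclude it. With the block 0 genes were called. The MXL_3 ratio of Ucp1 was 5.12 with a pseudocount of 0.1 and 4.23 on FPKM, that of Ppargc1a 0.82 on FPKM, and that of Cidea -1.16 against the other 3 MXL libraries. The causes were not tested. Of all values compared, 190 main and 328 further ones stayed within 1 SD or 1.5 times. Another 12 main and 12 further ones moved beyond that, not all of them given here. Among these, the median of the beige genes was -0.29 without MR3_4 against -0.04. That of the thyroid hormone deiodinases and receptors was -0.18 with limma against -0.49. With 5 and 4 libraries and a common biological coefficient of variation of 0.477, small differences in the members were not detectable, and depth limits Ucp1 outside MXL_3, with 36 to 88 counts per library.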

Other observations

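Markers of other skin cell types also varied between the libraries, and no relation of these lists to the members was tested. The summed FPKM of 6 epidermal markers was 2853 to 5628 in MR, 1157 to 5023 in the other MXL libraries and 1072 in MXL_3, where 3 of the 6 were lowest of all libraries. MXL_3 was lowest for 16.6% of all tested genes. Hair follicle markers summed to 431.3 to 3345 FPKM in MR and 721.5 to 1954 FPKM in MXL, and dermal fibroblast markers to 2278 to 3963 FPKM in MR and 3208 to 5402 FPKM in MXL. In edgeR 0 genes of these 3 lists were called, while 3 epidermal and 1 fibroblast marker had an unadjusted p under 0.05.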
